A study of Mus musculus with 21 samples.

Results

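The 10 genes P2ry12, P2ry13, Tmem119, Sall1, Siglech, Gpr34, Olfml3, Fcrls, Selplg and Slc2a5 are markers of homeostatic microglia, the resident macrophages of the brain in their undisturbed state. They were taken by gene symbol from the 45664 gene rows of the count table. All 10 were found, and all 10 were among the 22294 genes left after the filter on low counts. Messenger RNA was sequenced from whole ventral pons, the block of brainstem that contains the facial motor nucleus, in 21 libraries that form 7 groups of 3. Every mouse, controls included, was C57BL/6 of the line CX3CR1GFP/wt, in which green fluorescent protein stands in for 1 copy of the microglial receptor gene Cx3cr1. Surgery cut the right facial nerve, where it leaves the skull, in mice aged 8 weeks, and tissue was taken on day 7 (age 9 weeks), day 14 (10 weeks) and day 30 (12 weeks). On each day the lesion group was the right pons, on the side of the cut, and the contralateral group the left pons. The day 0 group was the left pons of unoperated mice aged 8 weeks. Lesion and right side cannot be told apart in this design, since lesion tissue was always right and all other tissue left. The labels do not say that the 3 libraries of a group came from separate mice, so a p-value measures only the spread between these libraries, which may be technical.

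Microglia at rest survey the tissue with moving processes, and P2Y receptors on those processes sense nucleotides that leak from injured cells. Signalling by transforming growth factor beta and transcription factors such as Sall1, PU.1 and Irf8 maintain this state. In many models of neurodegeneration microglia are known to turn the homeostatic genes down while they turn on phagocytic and lysosomal genes. Cutting the facial nerve is a classical model in which microglia divide around the motor neurons whose axons were cut. The comparison of the sides asks how the homeostatic genes stood in tissue with such a reaction.

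Library totals were 35874913 to 41448945 counts for the unoperated pons and 17358868 to 29827291 for operated tissue. The microglial gene Csf1r, the receptor for the growth factors that keep microglia alive, lay between 82.1 and 143 CPM (counts scaled to the library total) in the 21 libraries. Chat, which motor neurons use to make acetylcholine, was lower on the lesion side at day 14, by 1.54 ± 0.22 on the log2 scale (adjusted p = 0.00062, edgeR quasi-likelihood test). Of 4 motor neuron markers edgeR called 0, 2 and 0 lower there at days 7, 14 and 30 (DESeq2 2, 3 and 2). Neither tool called any higher. Among all genes edgeR called 0.0942%, 1.31% and 0.121% lower. Against day 0, DESeq2 called 1 of the 4 higher and 2 lower on the day 14 lesion side. Choroid plexus markers, led by Ttr, summed to 4470 CPM in day 7 lesion replicate 3. No other library exceeded 911 CPM for them.

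The members lie on 6 chromosomes (GRCm38, GENCODE annotation), with 1 pair of neighbours on chromosome 3 and 1 on chromosome 5. P2ry13 (chromosome 3, bases 59207892 to 59210882) and P2ry12 (59216272 to 59262871) are both on the minus strand, lie 5389 bases apart with no annotated gene between them, and are inside Med12l on the opposite strand. Tmem119 (chromosome 5, 113793729 to 113800516) and Selplg (113818536 to 113832644) are both on the minus strand, 18019 bases apart, with Gm19931 between them. Gpr34 (chromosome X, 13632089 to 13640858, plus strand) lies inside Cask on the opposite strand. The other members are Sall1 (chromosome 8, 89027235 to 89044162, minus), Siglech (chromosome 7, 55768178 to 55778925, plus), Olfml3 (chromosome 3, 103722222 to 103738001, minus), Fcrls (chromosome 3, 87250758 to 87263738, minus) and Slc2a5 (chromosome 4, 150119283 to 150144169, plus). All are protein-coding. The strand setting of the read counting is not stated, but P2ry12 shares only 9 exon bases with Med12l, and P2ry13 and Gpr34 share 0 with their host genes.

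Upstream sequence of 3 members is shown. P2ry12 is the receptor by which homeostatic microglia are most often recognised, and Siglech and Olfml3 were higher on the lesion side on every day. The bases before the transcript start are those of RefSeq for GRCm38.p6, up to 250 of them, printed along the strand of the gene. RefSeq places the start of P2ry12 somewhat upstream of the GENCODE one. Capitals mark AGGAAGT, the core of the site that the factor PU.1 binds.
P2ry12 upstream, chr3:59262986-59263235, minus strand: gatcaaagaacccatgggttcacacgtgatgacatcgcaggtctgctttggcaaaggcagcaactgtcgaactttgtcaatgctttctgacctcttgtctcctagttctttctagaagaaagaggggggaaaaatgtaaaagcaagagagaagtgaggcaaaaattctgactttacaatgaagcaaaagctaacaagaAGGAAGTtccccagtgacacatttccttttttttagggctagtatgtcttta
Siglech upstream, chr7:55767934-55768177, plus strand: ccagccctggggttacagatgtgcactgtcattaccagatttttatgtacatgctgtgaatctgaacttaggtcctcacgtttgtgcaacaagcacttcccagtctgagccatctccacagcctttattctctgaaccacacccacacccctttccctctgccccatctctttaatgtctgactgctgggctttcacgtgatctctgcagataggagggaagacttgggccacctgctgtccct
Olfml3 upstream, chr3:103738002-103738251, minus strand: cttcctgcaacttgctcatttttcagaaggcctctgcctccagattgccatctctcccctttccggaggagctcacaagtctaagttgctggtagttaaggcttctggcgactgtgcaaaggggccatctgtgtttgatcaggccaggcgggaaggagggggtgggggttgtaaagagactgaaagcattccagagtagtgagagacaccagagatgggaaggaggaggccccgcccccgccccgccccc
The AGGAAGT of P2ry12 spans bases 52 to 46 before the start. Searched on both strands, AGGAAGT occurred in 3 of the 9 upstream sequences that the RefSeq table holds for the members, namely those of P2ry12, Fcrls and 1 of the starts of Sall1, and in 7.69% of all 32851 upstream sequences. These letters were searched after the longer PU.1 site GAGGAAGT, which contains them, was found in 0 of the 9 and in 2.44% of all. The composite site of PU.1 with Irf8 (2.3% of all), the MEF2 consensus (3.2%) and the SMAD site GTCTAGAC (0.167%) were each in 0 of the 9. CCAAT was in 3 (P2ry13, Sall1 and Fcrls; 33.8% of all) and TATAAA in 1 (Fcrls; 12.4%). A match describes letters only.

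On the lesion side all 10 members had a positive difference from the contralateral side on each day, and none was called lower, where 0.0942%, 1.31% and 0.121% of all genes were at days 7, 14 and 30. Calls required an adjusted p under 0.05 (edgeR quasi-likelihood F-test over all 21 libraries, Benjamini-Hochberg over the 22294 genes). By this rule 5 of 10 were higher at day 7 (P2ry12, Tmem119, Siglech, Olfml3 and Selplg), against 1.56% of all genes tested. At day 14, 4 were higher (Tmem119, Siglech, Olfml3 and Selplg), against 2.58%. The same 4 genes were higher at day 30, against 1.04% (1.16% in either direction). The median log2 difference of the 10 members was 0.47, 0.49 and 0.35 on days 7, 14 and 30, while the median of all genes was -0.01, 0 and 0. The 3 lesion libraries lay above the 3 contralateral ones without overlap for 7 members at day 7 (7.26% of all genes), 6 at day 14 (10.7%) and 9 at day 30 (9.71%). Single libraries moved the counts of called members. At day 7, 3 were called without lesion replicate 2 or contralateral replicate 3. At day 30, 1 was called without lesion replicate 3 or contralateral replicate 2, and 2 without lesion replicate 1 or contralateral replicate 3. In bulk tissue more microglia and more RNA of these genes per microglial cell cannot be told apart, and this holds for every result below.

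**Figure D1:**
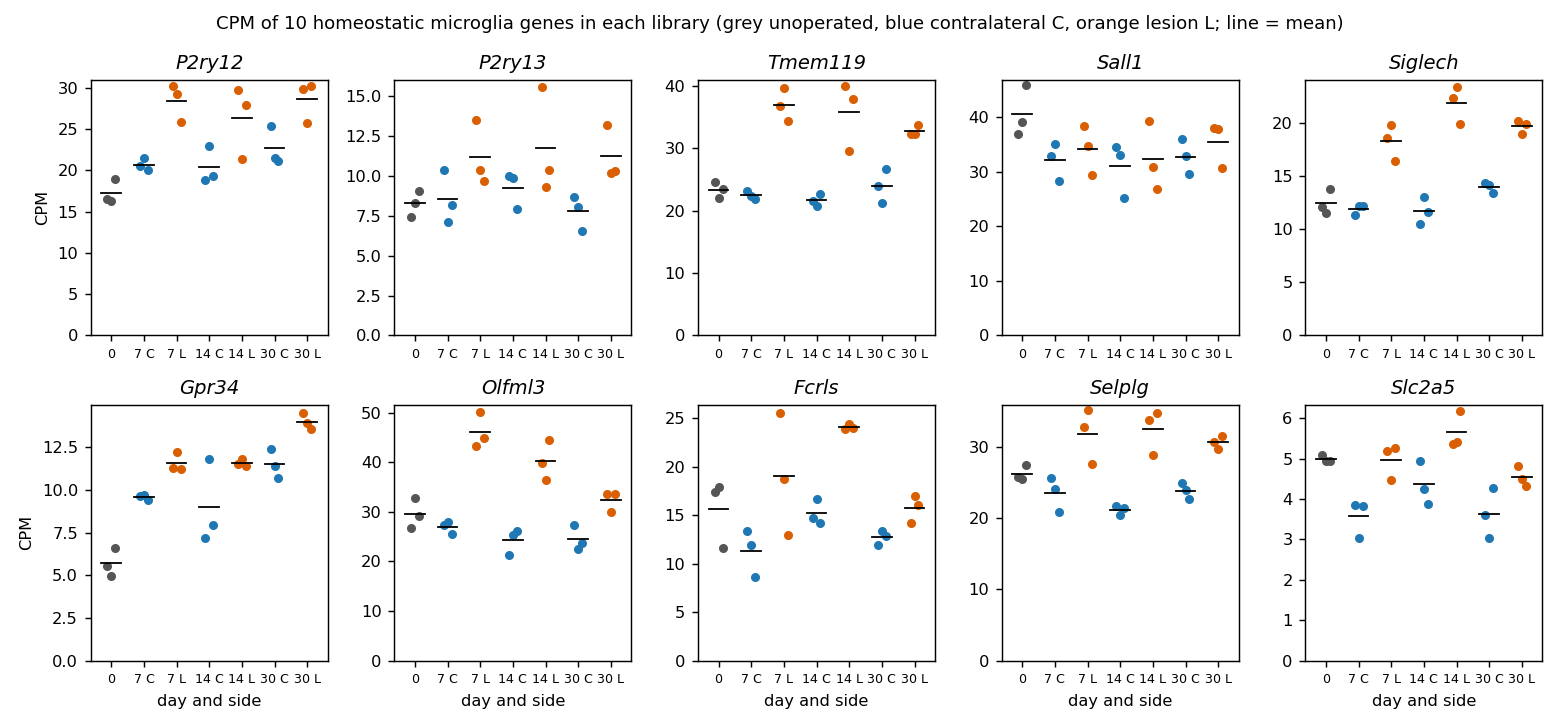
CPM of each member (one panel per gene, vertical axis from 0) in each of the 21 libraries, by day and side (grey unoperated day 0, blue contralateral C, orange lesion L); points are libraries and lines group means. Tmem119 and Siglech have every lesion library above every contralateral library of the same day, while for Sall1 the sides overlap on all 3 days.

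Among the receptors, P2ry12, the receptor for adenosine diphosphate that steers microglial processes to injury, stood at 30.2, 29.3 and 25.9 CPM in the day 7 lesion libraries and at 20.5, 21.5 and 20.1 CPM on the contralateral side. The sides did not overlap, and the log2 difference was 0.46 ± 0.11 (SE, 3 against 3 libraries, adjusted p = 0.02). At day 14 the lesion libraries held 29.7, 21.4 and 27.9 CPM and the contralateral ones 18.9, 23 and 19.3 CPM. Here lesion replicate 2 lay within the contralateral range, and the difference of 0.36 ± 0.11 missed the threshold (adjusted p = 0.056). At day 30 the values were 29.9, 25.8 and 30.3 CPM against 25.4, 21.5 and 21.1 CPM. These sides did not overlap, but the difference of 0.34 ± 0.11 was not called (adjusted p = 0.2). The day 7 call was lost when any library of that day other than lesion replicate 3 was left out (adjusted p from 0.054 to 0.12). At day 14 the gene was called without lesion replicate 2 (0.0039) or without contralateral replicate 2 (0.039).

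P2ry13 encodes another receptor for adenosine diphosphate and lies next to P2ry12. It stood at 13.5, 10.4 and 9.70 CPM in the day 7 lesion libraries and at 10.4, 7.12 and 8.18 CPM contralaterally, ranges that overlap. At day 14 lesion replicate 1, at 15.6 CPM, was far above the other lesion libraries (9.34 and 10.4 CPM), and the contralateral values were 9.98, 9.86 and 7.95 CPM. At day 30 the lesion libraries (13.2, 10.2 and 10.3 CPM) were all above the contralateral ones (8.72, 8.05 and 6.58 CPM). Its log2 differences of 0.38 ± 0.19, 0.34 ± 0.18 and 0.53 ± 0.19 were not called (adjusted p = 0.71, 0.34 and 0.33). With the replicate number as a block the day 30 difference of P2ry13 passed (adjusted p = 0.02).

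Gpr34, a receptor for lysophosphatidylserine, was at 11.3, 12.2 and 11.2 CPM in the day 7 lesion libraries against 9.65, 9.72 and 9.39 CPM. At day 14 it was at 11.5, 11.8 and 11.4 CPM against 7.19, 11.8 and 7.95 CPM, and at day 30 at 14.5, 13.9 and 13.6 CPM against 12.4, 11.4 and 10.7 CPM. The sides were apart at days 7 and 30 and met at day 14 through contralateral replicate 2. The log2 differences of Gpr34, 0.27 ± 0.13, 0.37 ± 0.13 and 0.28 ± 0.12, were not called (adjusted p = 0.66, 0.11 and 0.57). Without contralateral replicate 2 its day 14 difference was 0.61 and was called (adjusted p = 0.0022).

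Of the surface proteins, Tmem119, a membrane protein that among brain cells marks microglia, had values of 36.8, 39.7 and 34.4 CPM in the day 7 lesion libraries against 23.1, 22.4 and 21.9 CPM. At day 14 they were 40, 29.5 and 37.8 CPM against 21.5, 20.8 and 22.6 CPM, and at day 30 32.2, 32.3 and 33.7 CPM against 24, 21.2 and 26.7 CPM. The sides of Tmem119 were fully apart on each day, with log2 differences of 0.72 ± 0.09 (adjusted p = 1.3e-05), 0.72 ± 0.09 (8e-06) and 0.45 ± 0.09 (0.0083). These are folds of 1.64, 1.65 and 1.36. The day 30 call was lost without lesion replicate 3 (adjusted p = 0.056) or contralateral replicate 2 (0.1).

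Siglech, a sialic acid binding lectin of microglia that is also known from plasmacytoid dendritic cells, had the largest lesion difference of any member at day 14. It stood at 18.6, 19.8 and 16.4 CPM against 11.3, 12.2 and 12.2 CPM at day 7. It was at 22.3, 23.4 and 19.9 CPM against 10.5, 13 and 11.6 CPM at day 14, and at 20.2, 18.9 and 19.9 CPM against 14.3, 14.1 and 13.4 CPM at day 30. No lesion library reached down to a contralateral one. The log2 differences of Siglech were 0.61 ± 0.10 (adjusted p = 0.00018), 0.90 ± 0.09 (2.5e-07) and 0.50 ± 0.09 (0.0026), and it was the only member called on every day under all 14 alternative analyses that use the same threshold. The plasmacytoid dendritic cell markers Cd209d, Klk1, Cox6a2 and Ccr9 together reached at most 1.51 CPM in any library, below the level of Siglech in each. Of these 4, 2 passed the filter and neither was called between the sides on any day by edgeR or DESeq2. Cox6a2 at day 30 had an unadjusted p under 0.05 (edgeR). Levels of other genes do not bound the Siglech RNA of such cells, and their part in its difference was not tested.

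Selplg encodes the selectin ligand PSGL-1, which leukocytes in blood also carry. It stood at 32.7, 35.1 and 27.5 CPM against 25.6, 24.1 and 20.9 CPM at day 7, at 33.8, 28.8 and 34.7 CPM against 21.7, 20.4 and 21.4 CPM at day 14, and at 30.7, 29.7 and 31.5 CPM against 24.9, 23.9 and 22.7 CPM at day 30. Its sides never overlapped, and its log2 differences were 0.43 ± 0.09 (adjusted p = 0.0047), 0.61 ± 0.09 (3.9e-05) and 0.36 ± 0.09 (0.033). Without day 7 lesion replicate 2 or contralateral replicate 3 the day 7 call of Selplg was lost (0.063 and 0.07). Its day 30 call was lost when any 1 of the 6 libraries of that day was left out (0.066 to 0.21). Of 8 lymphocyte markers edgeR called 0, 0 and 3 higher on the lesion side at days 7, 14 and 30, against 1.56%, 2.58% and 1.04% of all genes. DESeq2 called 0, 0 and 1, and 2 had an unadjusted p under 0.05 (edgeR) at day 14. Cd8a stood at 0 CPM in each day 30 contralateral library and at a mean of 0.566 CPM on the lesion side (adjusted p = 0.003). Cd3d and Cd3g were the other edgeR calls of day 30. The summed level of 8 lymphocyte markers was 3.89 to 6.4 CPM on the day 30 lesion side against 2.93 to 3.52 CPM, and its part in the Selplg difference was not tested.

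Fcrls, a scavenger receptor of the Fc receptor-like family, varied widely between the libraries of day 7. At day 7 it stood at 25.5, 18.7 and 12.9 CPM against 13.4, 11.9 and 8.61 CPM, so lesion replicate 3 lay within the contralateral range. At day 14 it was at 23.9, 24.4 and 24 CPM against 14.7, 16.7 and 14.2 CPM, and at day 30 at 14.2, 17 and 16 CPM against 11.9, 13.4 and 12.8 CPM. On these days the sides were apart. The log2 differences of Fcrls, 0.74 ± 0.21, 0.67 ± 0.20 and 0.31 ± 0.21, did not pass (adjusted p = 0.14, 0.08 and 0.82). DESeq2 called the differences of days 7 and 14 (0.0059 and 0.01), limma-voom that of day 14 (0.041), as did the fit of only the groups compared (0.00095). With the replicate number as a block the day 7 difference passed (1.1e-05). Without day 7 lesion replicate 3, the library with the choroid plexus markers, the day 7 difference was 0.96 (0.0049).

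Olfml3, a secreted glycoprotein, stood at 43.2, 50.1 and 44.8 CPM in the day 7 lesion libraries against 27.4, 27.9 and 25.6 CPM. It was at 39.9, 36.4 and 44.5 CPM against 21.4, 25.3 and 26.2 CPM at day 14, and at 33.5, 29.9 and 33.5 CPM against 27.3, 22.5 and 23.7 CPM at day 30. The sides were apart on each day. Olfml3 had the largest difference of any member at day 7, 0.77 ± 0.09 on the log2 scale (adjusted p = 4.3e-06), followed by 0.73 ± 0.09 at day 14 (8.5e-06) and 0.40 ± 0.09 at day 30 (0.028). The day 30 call was lost without lesion replicate 1 (0.14), lesion replicate 3 (0.15), contralateral replicate 2 (0.21) or contralateral replicate 3 (0.17).

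Slc2a5, the fructose transporter Glut5, was the lowest member per kilobase of exon in every group. It stood at 5.19, 4.48 and 5.26 CPM against 3.85, 3.04 and 3.84 CPM at day 7, at 5.37, 5.40 and 6.17 CPM against 4.94, 4.26 and 3.88 CPM at day 14, and at 4.81, 4.50 and 4.33 CPM against 3.61, 3.04 and 4.27 CPM at day 30. The lesion libraries were above the contralateral ones each time, by a narrow gap at day 30, and the log2 differences of 0.48 ± 0.14, 0.38 ± 0.14 and 0.32 ± 0.14 were not called (adjusted p = 0.13, 0.13 and 0.6). Among all genes edgeR called 1.65%, 3.88% and 1.16% in either direction on the 3 days. Of 8 other hexose transporter genes and hexose enzymes, 0, 1 and 0 were called by edgeR and by DESeq2. The call was Slc2a6 at day 14, with 0.26 ± 0.07 (adjusted p = 0.04).

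Sall1, the zinc finger transcription factor that holds microglia in their identity, was the member with the smallest difference on each day. It stood at 38.5, 34.8 and 29.4 CPM against 33.0, 35.1 and 28.4 CPM at day 7, at 39.4, 30.9 and 26.9 CPM against 34.6, 33.2 and 25.3 CPM at day 14, and at 38.0, 37.9 and 30.8 CPM against 36, 32.9 and 29.6 CPM at day 30. The sides overlapped every time. The log2 differences of Sall1 were 0.09 ± 0.15, 0.06 ± 0.15 and 0.12 ± 0.15 (adjusted p = 1, 0.88 and 0.93), with 95% intervals from -0.23 to 0.41, -0.26 to 0.38 and -0.20 to 0.43. Those intervals hold no change as well as a modest rise.

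**Figure D2:**
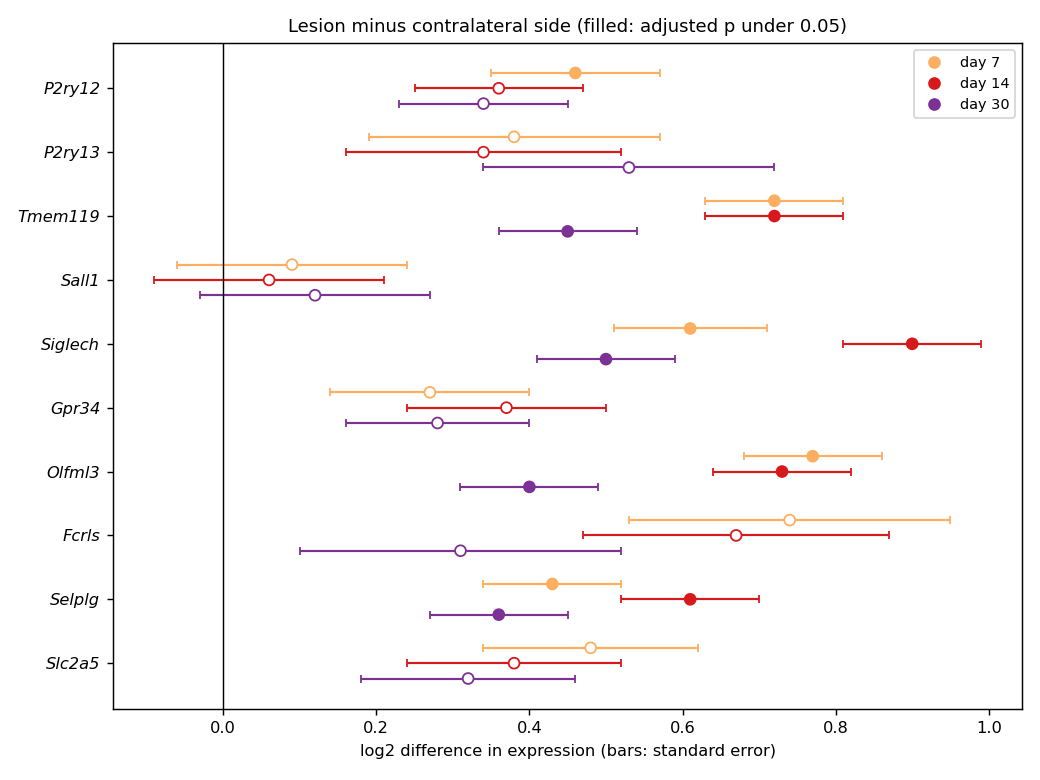
Log2 difference between lesion and contralateral side for each member (rows) at days 7, 14 and 30 (colours); bars are standard errors and filled points passed an adjusted p of 0.05. All 30 points lie right of 0, between 0.06 and 0.90, with Sall1 nearest to 0.

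The lesion difference itself was not shown to differ between days for any member. As a contrast between days (edgeR), 0 members were called for day 14 against day 7, day 30 against day 7 and day 30 against day 14, where 0%, 0.0269% and 0.0807% of all genes were. DESeq2 and limma-voom called 0 members too. At an unadjusted p under 0.05 the counts were 1, 2 and 3 of 10. The largest was Siglech, whose difference was lower at day 30 than at day 14 by 0.40 ± 0.13 (unadjusted p = 0.0051, adjusted p = 0.18), followed by Olfml3, lower at day 30 than at day 7 by 0.37 ± 0.13 (0.0092, adjusted 0.97). Comparing the lesion groups of days 30 and 14 directly, 0 members passed with edgeR (1 higher and 3 lower at an unadjusted p under 0.05), where 0.754% of all genes were called higher and 0.996% lower (1.75% in all). DESeq2 called 2, Olfml3 at -0.32 (adjusted p = 0.036) and Fcrls at -0.62 (0.025). Contralateral levels of the same days also gave 0 calls, by edgeR and by DESeq2, with 2 members higher at an unadjusted p under 0.05. Among all genes 0.408% were called there. Without day 14 contralateral replicate 2, Gpr34 was called as higher at day 30 on that side (0.60, adjusted p = 0.047).

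Set against the unoperated pons of day 0, 6, 7 and 4 members were higher on the lesion side at days 7, 14 and 30, where 8.14%, 9.78% and 12.7% of all genes were called higher. None was lower, against 4.32%, 7.03% and 9.69% of all genes. On the contralateral side 1, 1 and 2 members were higher (6.84%, 9.09% and 9.32% of all genes) and 1, 2 and 2 lower (3.66%, 6.73% and 6.81%). The 6 comparisons use the same 3 day 0 libraries. Day 0 differs from the operated groups also in age and depth, and from days 14 and 30 in the lane number of the column headers (day 7 carries the same number as day 0). These cannot be told apart from the operation. Markers of other cells stood apart as well. The 3 neuron markers summed to 3280 to 3350 CPM at day 0 and to 3980 to 4730 CPM in the operated groups. Of them edgeR called 1, 1 and 1 higher on the lesion side at days 7, 14 and 30. Contralaterally it called 1, 2 and 1 (DESeq2 2, 2 and 1). Their median log2 differences were 0.13, 0.09 and -0.06 on the lesion side and 0.17, 0.18 and -0.02 contralaterally. At day 30 the higher sum was thus not shared by all 3. The 3 oligodendrocyte markers summed to 24700 to 26200 CPM at day 0 and 18200 to 23800 CPM in the operated groups. Of these 2, 2 and 1 were called lower on the lesion side and 1, 2 and 1 contralaterally. The 3 endothelial markers summed to 201 to 224 CPM at day 0 and 137 to 186 CPM in the operated groups, with Cldn5 and Pecam1 called lower in all 6 comparisons by edgeR and 2 markers by DESeq2. Of 6 blood monocyte and neutrophil markers edgeR called 1, 1 and 3 higher on the lesion side at days 7, 14 and 30 (DESeq2 0, 0 and 2), and of 8 lymphocyte markers 0, 1 and 3 (DESeq2 0 each time). Contralaterally both tools called 0 of either list higher on each day. The sum of the blood markers was 1.74 to 3.04 CPM at day 0 and 4.37 to 7.34 CPM on the day 30 lesion side. On the day 30 contralateral side it was 4.13 to 5.4 CPM, also above the day 0 range. The sum of the lymphocyte markers was 3.72 to 4.36 CPM at day 0, 3.89 to 6.4 CPM on the day 30 lesion side and 2.93 to 3.52 CPM contralaterally. The part of these markers in the results against day 0 was not tested.

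Gpr34 was higher than at day 0 on both sides and on every day. In the day 0 libraries it stood at 5.55, 4.97 and 6.58 CPM, below each of the 18 operated libraries, the lowest of which was at 7.19 CPM. On the contralateral side its log2 difference from day 0 was 0.75 ± 0.13 at day 7 (adjusted p = 0.00019), 0.65 ± 0.13 at day 14 (0.00079) and 1.01 ± 0.13 at day 30 (1.9e-06). On the lesion side it was 1.02 ± 0.13, 1.02 ± 0.13 and 1.30 ± 0.13 (2.1e-06, 1.4e-06 and 2.1e-08). Most of the log2 distance of Gpr34 from day 0 was thus present on the side away from the cut. Each of these 6 calls of Gpr34 held in all 13 alternatives run with that threshold.

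P2ry12 had the next largest contralateral rise. Its day 0 libraries held 16.5, 16.3 and 19 CPM, and the contralateral log2 differences were 0.26 ± 0.11, 0.24 ± 0.11 and 0.39 ± 0.11, of which day 30 was called (adjusted p = 0.14, 0.14 and 0.012). The day 30 call was lost without day 0 replicate 2 (0.051) or contralateral replicate 1 (0.097). The lesion side was higher by 0.72 ± 0.11, 0.60 ± 0.11 and 0.73 ± 0.10, with every lesion library above the day 0 range (2.6e-05, 0.00017 and 1.1e-05).

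Tmem119 and Siglech were near their day 0 level on the contralateral side and above it on the lesion side. Tmem119 stood at 24.5, 22 and 23.4 CPM at day 0, and its contralateral differences ran from -0.10 to 0.05. Its lesion differences were 0.67 ± 0.09, 0.62 ± 0.09 and 0.49 ± 0.09 (adjusted p = 6.7e-06, 1.5e-05 and 0.00021). Siglech stood at 12.1, 11.5 and 13.8 CPM at day 0, with contralateral differences from -0.10 to 0.16. Its lesion differences of 0.55 ± 0.09, 0.81 ± 0.09 and 0.66 ± 0.09 were all called (0.00011, 2.6e-07 and 5e-06). Of the 2 tested plasmacytoid dendritic cell markers, Cox6a2 was also higher than at day 0 on the lesion side at days 14 and 30. It stood at 0.788 and 0.875 CPM against 0.295 CPM (edgeR, adjusted p = 0.024 and 0.0088). The other, Ccr9, went the opposite way at day 14, lower at an unadjusted p under 0.05 (edgeR), and was not called. The 2 thus gave no shared direction at day 14, and the part of Cox6a2 was not tested.

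For Olfml3 and Selplg part of the gap between the sides lay below the day 0 level. Olfml3 was at 26.8, 32.8 and 29.2 CPM at day 0. Its lesion differences from day 0 were 0.64 ± 0.09 and 0.44 ± 0.09 at days 7 and 14 (adjusted p = 1.4e-05 and 0.00087) and 0.13 ± 0.09 at day 30 (0.35). Contralaterally Olfml3 was at -0.14 ± 0.09, -0.28 ± 0.09 and -0.27 ± 0.09, the last of these called together with day 14 (0.037 and 0.045). At day 30 the lesion mean of Olfml3 was thus near that of day 0 and the contralateral mean under it. The contralateral call of day 14 was lost without day 0 replicate 2 (0.23) or 3 (0.07) or contralateral replicate 1 (0.2) or 2 (0.063), and with the deposited matrix (0.091) or only the groups compared (0.095). That of day 30 was lost without day 0 replicate 2 (0.21) or 3 (0.072) or contralateral replicate 2 (0.23) or 3 (0.17), and also with limma-voom (0.059), the deposited matrix (0.1), DESeq2 size factors (0.056), filterByExpr (0.061) or only the groups compared (0.077). It held in 4 of 13 alternatives.

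Selplg was at 25.8, 25.4 and 27.4 CPM at day 0. The lesion side was higher by 0.28 ± 0.08 at day 7 (adjusted p = 0.03), 0.31 ± 0.08 at day 14 (0.012) and 0.23 ± 0.08 at day 30 (0.055). The contralateral side was lower at day 14, by 0.31 ± 0.09 (0.015). At days 7 and 30 it stood at -0.15 ± 0.09 and -0.14 ± 0.09 and was not called (0.31 and 0.32). The lesion libraries of Selplg were all above the day 0 range on each day. The day 7 call was lost without day 0 replicate 1 (0.08) or 2 (0.084) or lesion replicate 1 (0.093) or 2 (0.19). It was also lost with the deposited matrix and with only the groups compared. The lesion call of day 14 was lost without lesion replicate 3 (0.076) or with only the groups compared. The contralateral call was lost without day 0 replicate 3 (0.068) or contralateral replicate 2 (0.074). The day 30 lesion difference passed in 6 of 13 alternatives, among them DESeq2 and limma-voom.

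Slc2a5 was called against day 0 on the contralateral side at days 7 and 30. Its day 0 libraries held 5.08, 4.94 and 4.93 CPM, and the lesion differences were 0.00 ± 0.13, 0.18 ± 0.13 and -0.13 ± 0.13 (adjusted p = 1, 0.38 and 0.54). On the contralateral side it was lower by 0.48 ± 0.14 at day 7 (0.024) and by 0.44 ± 0.14 at day 30 (0.026), and at day 14 its difference was -0.19 ± 0.13 (0.37). The day 7 call was lost without day 0 replicate 1, 2 or 3 (0.063, 0.051 and 0.052) or contralateral replicate 2 (0.17). The day 30 call was lost without day 0 replicate 1, 2 or 3 (0.065, 0.053 and 0.053) or contralateral replicate 1 or 2 (0.078 and 0.18). Both calls were also lost with only the groups compared, and that of day 30 without a filter on low counts.

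Sall1, P2ry13 and Fcrls had 1 call between them against day 0. Sall1 stood at 37, 39.1 and 45.9 CPM at day 0, above the contralateral libraries of every later day, and its 6 log2 differences were all negative, from -0.39 to -0.19. None was called by edgeR (3 at an unadjusted p under 0.05). DESeq2 and limma-voom called that of the day 14 contralateral side (-0.38 and -0.40, adjusted p = 0.034 and 0.04). With edgeR that of the day 14 lesion side was called without lesion replicate 1 (-0.49, 0.027). That of the day 30 contralateral side was called with only the groups compared (0.049). P2ry13, at 7.45, 8.32 and 9.08 CPM on day 0, had lesion differences of 0.43 ± 0.18, 0.50 ± 0.18 and 0.44 ± 0.18 (adjusted p = 0.13, 0.059 and 0.079), all lesion libraries being above the day 0 range. Without day 14 lesion replicate 2 that of day 14 was called (0.64, 0.022). DESeq2 and filterByExpr called it too, and limma-voom and the fit of only the groups compared called that of day 30. Fcrls, at 17.4, 17.9 and 11.6 CPM on day 0, was higher in the day 14 lesion side by 0.62 ± 0.19 (0.036). This call was lost without day 0 replicate 3 (0.13) or any one of the 3 lesion libraries (0.072 to 0.093). It was also lost with the deposited matrix and without a filter on low counts. On the contralateral side at day 7 Fcrls was at -0.47 ± 0.21 (0.18), and it was called as lower without day 0 replicate 3 (-0.65, 0.049).

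**Figure D3:**
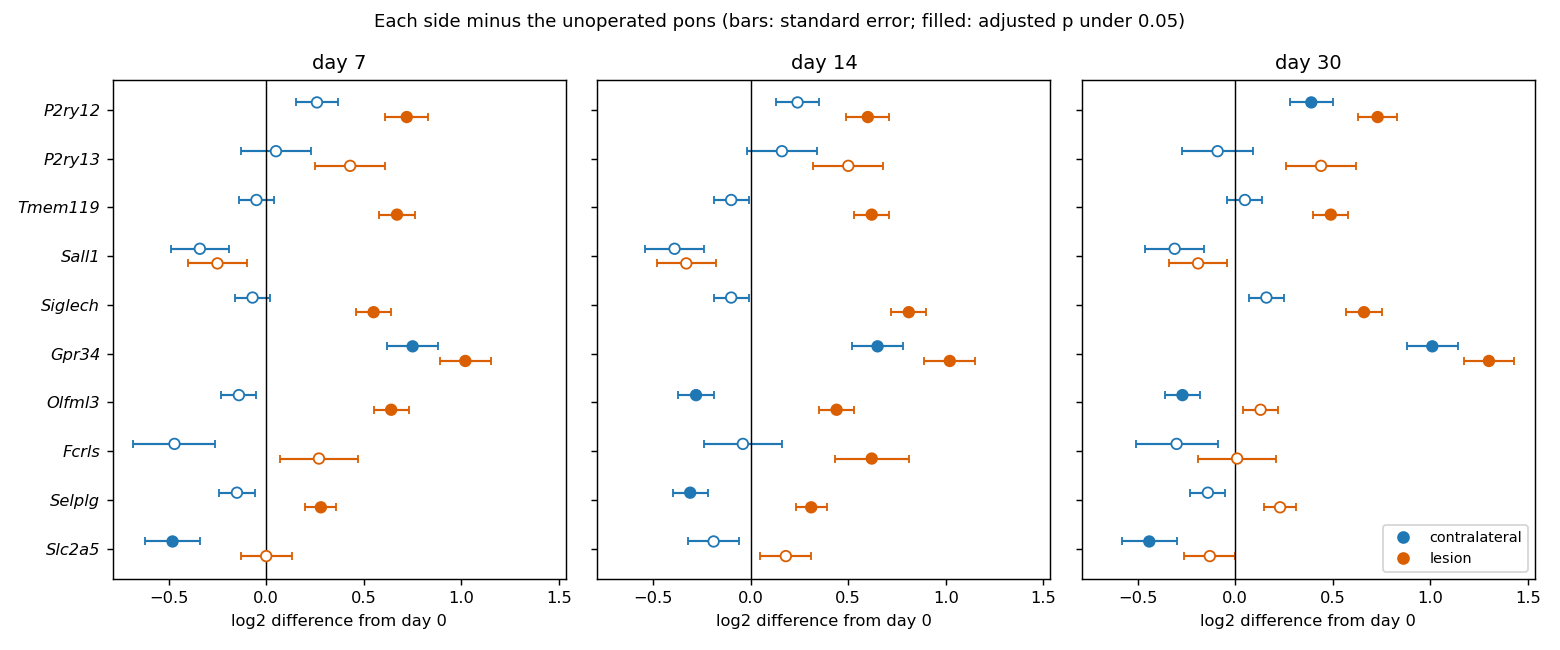
Log2 difference of each member (rows) from the unoperated day 0 pons at days 7, 14 and 30 (panels) on the contralateral (blue) and lesion side (orange); bars are standard errors and filled points passed an adjusted p of 0.05. Gpr34 lies at 0.65 or more on both sides on every day, whereas the contralateral points of Tmem119 and Siglech stay between -0.10 and 0.16.

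Levels were compared between genes as CPM per kilobase of exon. At day 0 Tmem119 was highest, at 10 ± 0.538 CPM per kilobase (SD, n = 3), and did not overlap the next member. Sall1 (7.74 ± 0.886), P2ry12 (6.79 ± 0.588), Fcrls (6.71 ± 1.49) and Selplg (6.13 ± 0.243) followed, each overlapping its neighbour in this order. Olfml3 (4.81 ± 0.492), Siglech (3.69 ± 0.341), P2ry13 (3.28 ± 0.321), Gpr34 (2.73 ± 0.39) and Slc2a5 (1.46 ± 0.0248) were lower, of which Siglech, P2ry13 and Gpr34 overlapped neighbour by neighbour. In the lesion side at day 7 Tmem119 was first again, at 16 ± 1.15 CPM per kilobase, with P2ry12 next at 11.2 ± 0.876 and Slc2a5 last at 1.46 ± 0.127. Sall1, at 6.52 ± 0.872, came after Fcrls, Olfml3 and Selplg there, but overlapped Selplg. Summed over the 10 members, CPM were 178 to 191 at day 0, 159 to 188 on the contralateral side and 217 to 262 on the lesion side over the 3 days, so that no lesion library overlapped the other groups.

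Genes of microglia in general were higher on the lesion side as well. Of 18 core microglia genes such as Cx3cr1, Csf1r, C1qa and Ctss, 15, 17 and 15 were called higher at days 7, 14 and 30. Among all genes tested 1.56%, 2.58% and 1.04% were. Median log2 differences of the core genes were 0.75, 0.82 and 0.74. The medians of the 10 homeostatic genes, given above, were smaller on each day. Mean log2 CPM of the 18 core genes was higher on the lesion side by 0.73, 0.84 and 0.69, and each member's own lesion difference was set against this. At day 7 the member stood below the core genes in 9 of 10 cases, at day 14 in 9 and at day 30 in 10, with medians of -0.26, -0.34 and -0.34 on the log2 scale. All 3 lesion libraries lay below the 3 contralateral ones on this relative scale for 4, 5 and 9 members. Among all genes the share was 71.5%, 76.6% and 73.4%, since by construction a gene without a difference between the sides lies below a core that was higher.

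Sall1 was furthest below the core genes on each day, at -0.64, -0.78 and -0.58. The 3 receptors Gpr34 (-0.46, -0.44 and -0.40), P2ry12 (-0.27, -0.48 and -0.35) and P2ry13 (-0.34, -0.52 and -0.17) were below it too, as were Slc2a5 (-0.25, -0.46 and -0.36) and Selplg (-0.30, -0.23 and -0.33). Tmem119 (-0.02, -0.12 and -0.23), Siglech (-0.12, 0.07 and -0.19), Olfml3 (0.04, -0.11 and -0.29) and Fcrls (-0.01, -0.17 and -0.38) stayed close to the core at day 7 and lay lower at day 30, a description that was not tested. The scale matters here. Taken as a ratio of summed CPM, which abundant genes dominate, members stood at 10.8 ± 0.707 per 100 core CPM on the day 7 lesion side (SD, n = 3) against 9.63 ± 0.295, at 10.9 ± 1.28 against 10.5 ± 0.597 at day 14 and at 10.2 ± 0.0633 against 9.64 ± 0.324 at day 30. The summed ratio was thus higher on the lesion side, with overlap at day 14, where the median over members of the log2 value was lower. The core gene Cst3 alone held means of 1040, 1040 and 1000 CPM on the lesion side at days 7, 14 and 30. The core sums there were 2240, 2230 and 2200 CPM. Contralaterally Cst3 held 978, 849 and 1040 CPM of 1770, 1590 and 1840 CPM. This gene thus weighs heavily in the summed ratio. The members' mean sums were 242, 242 and 225 CPM on the lesion side and 171, 168 and 177 CPM contralaterally. By these group means the ratio without Cst3 is lower on the lesion side at days 7, 14 and 30, the opposite of the ratio with it. The ratio without Cst3 was not tested.

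**Figure D4:**
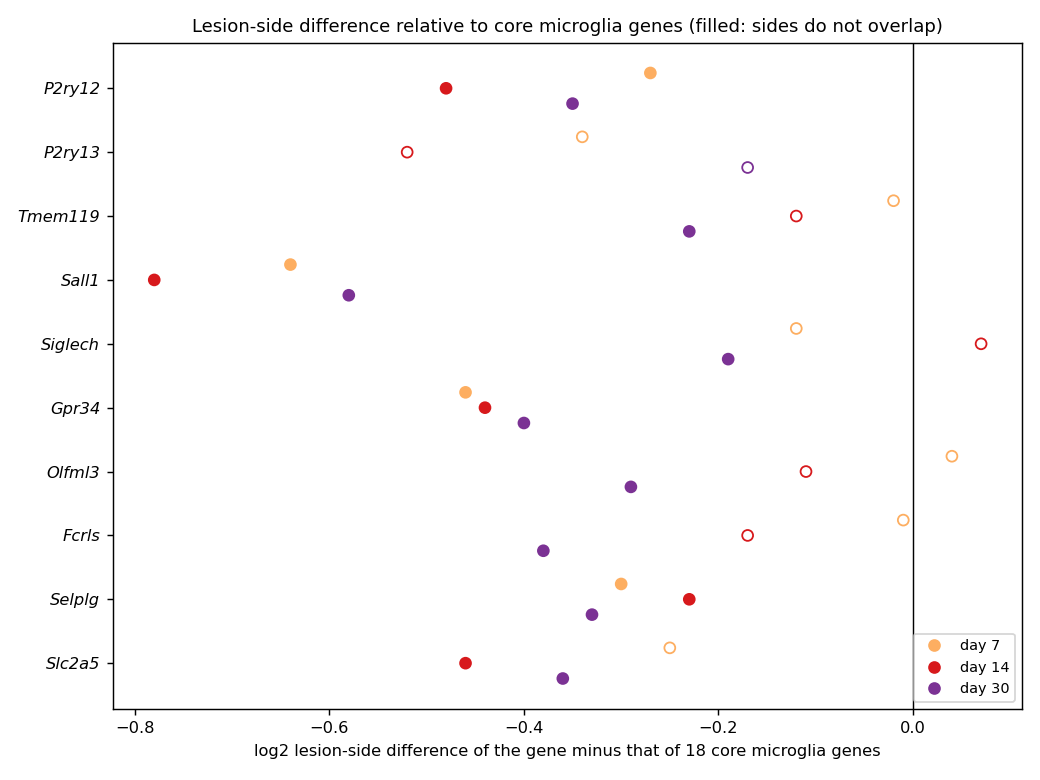
Log2 difference between lesion and contralateral side of each member (rows) minus the mean difference of 18 core microglia genes, at days 7, 14 and 30 (colours); filled points have lesion and contralateral libraries that do not overlap on this relative scale. Siglech at day 14 (0.07) and Olfml3 at day 7 (0.04) are the points right of 0, and Sall1 lies furthest left on each day.

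Of 19 tested genes on a further list of homeostatic microglia genes, 5, 7 and 5 were called higher on the lesion side at days 7, 14 and 30. None was lower (medians 0.28, 0.35 and 0.28). Among all genes 1.56%, 2.58% and 1.04% were called higher. Lag3, an inhibitory receptor, had a mean of 10.6 CPM against 2.9 at day 7, 13.5 against 3.1 at day 14 and 13.4 against 3.22 at day 30, with log2 differences of 1.87 ± 0.16, 2.11 ± 0.16 and 2.05 ± 0.16 (adjusted p = 1.7e-08, 6.8e-10 and 6.3e-09). These exceed the difference of any of the 10 members. The organic anion transporter Slco2b1 differed by 0.36 ± 0.08, 0.37 ± 0.08 and 0.41 ± 0.08 (0.019, 0.01 and 0.0063). Against the same shares of all genes (1.56%, 2.58% and 1.04%), 7, 11 and 9 of 20 disease-associated microglia genes were called higher (medians 0.28, 0.53 and 0.30). At day 30 they included the integrin Itgax (3.52 ± 0.40, adjusted p = 4e-06), the phagocytic receptor Trem2 (0.96 ± 0.11, 4.4e-06), the cathepsin inhibitor Cst7 (4.27 ± 0.50, 5.9e-06) and the pattern receptor Clec7a (2.03 ± 0.26, 2.4e-05). Members of both lists were thus called higher in the same lesion libraries as the homeostatic genes.

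Genes known to keep the homeostatic state in place were also examined. Of 20 identity regulators and genes of the transforming growth factor beta pathway, 2, 5 and 3 were called higher and none lower (medians 0.08, 0.01 and 0.11), where 1.56%, 2.58% and 1.04% of all genes were called higher. The transcription factor Irf8 was higher by 0.95 ± 0.19, 1.15 ± 0.19 and 1.13 ± 0.18 (adjusted p = 0.004, 0.00031 and 0.00058). Spi1, which encodes PU.1, was higher by 0.87 ± 0.18 at day 7 (0.0048) and 0.78 ± 0.18 at day 14 (0.0094), and stood at 0.55 ± 0.17 at day 30 (0.19). The ligand gene Tgfb1 was higher at day 14 by 0.72 ± 0.16 (0.0068). The receptor genes Tgfbr1 and Tgfbr2 were higher at day 30, by 0.39 ± 0.09 (0.013) and 0.35 ± 0.08 (0.014).

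Partners of the purinergic and selectin members were mostly not called. DESeq2 called 1, 2 and 0 of 16 such genes. By edgeR 1, 2 and 1 were higher and none lower (medians 0.03, -0.05 and 0.07), against 1.56%, 2.58% and 1.04% of all genes called higher. They were Panx1, a channel that releases nucleotides (0.39 ± 0.09 at day 7, adjusted p = 0.0084, and 0.45 ± 0.08 at day 14, 0.0015), P2ry6, the receptor for uridine diphosphate (0.98 ± 0.22 at day 14, 0.0089), and the adenosine receptor Adora3 (1.59 ± 0.39 at day 30, 0.036). Among the genes that lie beside members, Med12l, the host of P2ry12 and P2ry13, was lower on the lesion side at day 14 by 0.52 ± 0.13 (0.031), opposite in sign to both genes inside it, and stood at -0.01 ± 0.14 and 0.03 ± 0.13 on days 7 and 30. P2ry14, a further receptor in Med12l, was not called (0.04 ± 0.15, -0.09 ± 0.15 and 0.21 ± 0.15), nor was Cask (-0.04 ± 0.06, -0.02 ± 0.05 and 0.05 ± 0.05). Gpr171 and Gpr82, which also lie beside members, did not pass the filter.

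Markers of macrophages at the borders of the brain gave no calls between the sides. Of 7 border macrophage markers (Mrc1, Cd163, Lyve1, Pf4, F13a1, Ms4a7 and Cbr2) 0 were called on any day by edgeR or DESeq2, and 0 had an unadjusted p under 0.05. Their sum was 18.2 to 23.2 CPM against 17.4 to 27.9 CPM at day 7, 14.5 to 24.1 against 13.4 to 28.7 CPM at day 14, and 20.8 to 27 against 22.1 to 24.8 CPM at day 30. Of 6 blood monocyte and neutrophil markers 0 were called between the sides by either tool (1 lower at day 7 and 1 higher at days 14 and 30 at an unadjusted p under 0.05), and their sum reached at most 7.34 CPM. Platelets carry P2ry12 too. Of 3 tested platelet markers 0, 1 and 0 were called (Gp1bb, 0.77 ± 0.18 at day 14, adjusted p = 0.014), against 1.65%, 3.88% and 1.16% of all genes. All 4 platelet markers summed to between 5.54 and 10.2 CPM in the 21 libraries, with P2ry12 above that in each. The part of the platelet markers in the P2ry12 values was not tested.

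Over the 21 libraries the members did not form 1 pattern. The correlation of log2 CPM with the mean profile of the other 9 members was highest for Tmem119 (Pearson's r = 0.91), Selplg (0.90) and Siglech (0.88), followed by Olfml3 (0.80), P2ry12 (0.77), P2ry13 (0.76), Fcrls (0.64), Slc2a5 (0.52), Gpr34 (0.44) and Sall1 (0.10). These values describe 21 libraries that fall into 7 groups and share the lesion difference. With group means removed r was 0.81 for P2ry12, 0.62 for Selplg, 0.58 for P2ry13 and 0.47 for Sall1. It was 0.37 for Gpr34, 0.36 for Tmem119, 0.27 for Olfml3, 0.26 for Siglech, 0.14 for Fcrls and -0.20 for Slc2a5. Tmem119 and Siglech, near the top over the 21 libraries, were thus much less like the other members within groups. Among 15470 other genes with a mean of at least 1 CPM, those most like the members' mean profile included Laptm5 (r = 0.96), Ly86, C1qc, Fcer1g, Csf1r and C1qb (0.95), and Csf1, Itgam and Lag3 (0.94). Csf1, a ligand of the receptor made from Csf1r, had the highest within-group value of these, 0.82, and Lag3 the lowest, 0.35.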

How the data were processed

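The authors' sequencing kit was a stranded mRNA kit started from 300 ng of total RNA and read as 50-base single reads, per the labels. Per the submitters' processing notes and the series' design text, bases were called with CASAVA 1.8.2, reads aligned with Rsubread (default settings; GRCm38.p4; a GENCODE annotation of the mouse) and counts per gene made with featureCounts. The deposited table holds raw counts of 45664 gene rows in 21 libraries. The deposited matrix holds log2 CPM from voom of 22294 genes, which the authors had filtered by dropping genes without a count and those at or below the 32nd percentile of summed counts. Recomputed values differed from it by at most 5e-11 for the 22269 genes matched by symbol. Among the counted rows, 27 carry symbols turned into dates, and none is a gene described here. At day 30 the side letters of the count columns are opposite to the sample labels. The sample descriptions state this, they were followed, and the direction of each day 30 result rests on it.

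The same filter was applied here (summed count above 29). A single edgeR 4.0.16 model (R 4.3.3) held all 21 libraries with a coefficient for each of the 7 groups, scaled by TMM. Its robust quasi-likelihood F-tests were two-sided and adjusted by Benjamini-Hochberg over 22294 genes. Each log2 difference carries its standard error, ±. CPM use TMM-adjusted totals. The procedure was tested on simulated data. Exact tests of 3 against 3 libraries reach no p under 0.1, which is why all groups share 1 estimate of the spread. Alternatives were DESeq2 1.42.0, limma-voom and limma on the deposited matrix (limma 3.58.1), DESeq2 size factors, 2 other filters, only the groups compared, the authors' log2 threshold of 1.7, a replicate block and leaving out each library.

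All 10 members are named. From other lists up to 4 genes with the smallest adjusted p per comparison were named, all tested neighbours, and the 10 genes most correlated with the members. Some of these genes are not reported here. The members and lists were chosen with earlier results of these data known. The main model held no pairs. Only the replicate block, an alternative, treated equal replicate numbers as pairs, on every day including day 14. Equal numbers were judged to pair at days 7 and 30. There, after removal of group means, same-numbered sides correlated across genes at 0.27, 0.24 and 0.17, and at 0.20, 0.21 and 0.19. At day 14 the values were 0.28, 0 and 0.17. The labels do not say what the numbers mark.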

Additional observations from a re-analysis of the deposited data

How the results depend on the processing

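No member reversed its direction in a result that was called. At the authors' second threshold, a log2 difference of at least 1.7, 0 members were called in any comparison. Without 1 library the members called between the sides were 3 to 6 at day 7, 4 to 6 at day 14 and 1 to 3 at day 30. Against day 0 they were 1 to 2, 1 to 3 and 1 to 3 on the contralateral side of days 7, 14 and 30, and 0 to 1 for the contralateral side of day 30 against day 14. At day 30 limma-voom and the deposited matrix both gave 2 between the sides. Using only the groups compared gave 1 on the contralateral side of day 7. For the lesion side of day 30 against day 14, DESeq2 gave 2, the counts without a filter 1 and only the groups compared 1.

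With the replicate number as a block 6, 6 and 5 members were called between the sides at days 7, 14 and 30. The block added Fcrls at day 7, Fcrls (adjusted p = 9.3e-06) and Gpr34 (0.034) at day 14, where the numbers pair the libraries less well, and P2ry13 at day 30, and changed no other call of a member.

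Apart from the threshold on the log2 difference, libraries left out, the block and Fcrls, members changed their call between the sides as follows. At day 7 P2ry12 was lost with the deposited matrix (adjusted p = 0.087). At day 14 P2ry12 was gained with DESeq2 (0.037) and without a filter (0.0049), and Gpr34 without a filter (0.042). At day 30 Olfml3 and Selplg were lost with limma-voom (0.061 and 0.058) and the deposited matrix (0.11 and 0.1), P2ry12 was gained without a filter (0.028) and with only the groups compared (0.018), and P2ry13 with the latter (0.014).

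Counts over all genes, the background of the shares printed, moved by more than 1.5 times in several comparisons. Between the sides 866 genes were called at day 14, against 432 to 1983 without 1 library, 1898 with the block and 435 with only the groups compared. At day 30 there were 259, against 158 to 218 without 1 library and 569 with only the groups compared. The difference of the lesion effect between days 30 and 14 gave 18 genes, 5 to 938 without 1 library and 745 with the block, and that between days 30 and 7 gave 6, 2 to 7 without 1 library and 32 without a filter. Day 30 against day 14 gave 390 genes on the lesion side (108 to 1343 without 1 library) and 91 on the contralateral side (0 to 12 without 1 library, 1224 with only the groups compared). Against day 0 the day 14 lesion side gave 3749 genes and 1817 with only the groups compared, and the contralateral side of that day 3527 and 2246 to 3860 without 1 library. The causes were not tested.

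For members that were not called, the standard errors and intervals bound the difference, and a missed threshold does not show that the sides were alike.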
